A study of Homo sapiens with 24 samples.

Results

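Polyamine metabolism was described through 8 genes, AMD1, ODC1, SRM, SMS, SAT1, OAZ1, OAZ2 and AZIN1, in OCI-AML3 cells, a human leukaemia line of the acute myeloid type that was grown in mice. The genes were taken by symbol from the platform's probe listing, and the set was chosen on the low AMD1 values seen after 72 h of treatment. They are 8 of the 20046 genes on the array and 8 of the 10351 genes that passed a filter on dim probes. All 11 of their probes passed it.

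The cells carried luciferase and GFP, and all mice were of the NSG strain (NOD/SCID/IL-2rγnull), which lacks mature lymphocytes of its own and accepts human cells. Leukaemia cells were sorted on GFP and human CD45 from femoral marrow, spleen and blood of each of 8 mice, with 1 array per site and mouse. Treated mice received LY2510924, a peptide blocker of the chemokine receptor CXCR4, at 2.5 mg/kg daily under the skin from day 40, for 24 h in 3 mice and for 72 h in 2 mice, and 3 control mice were untreated. In the sample characteristics the name reads LY2510294. Harvest fell on day 41 for the 24 h mice, day 42 for the controls and day 43 for the 72 h mice, so harvest day and treatment cannot be told apart. All 24 h mice lay on BeadChip 1 and all 72 h mice on BeadChip 2, with controls on both. Differences between 24 h and 72 h values therefore cannot be told apart from differences between the BeadChips. The mice keep red cells and myeloid cells of their own. All groups rest on a single cell line, and the 24 h and 72 h comparisons share the control mice.

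Polyamines (putrescine, spermidine and spermine) are small positively charged molecules that bind nucleic acids and are needed for cell growth. Ornithine decarboxylase makes putrescine, and S-adenosylmethionine decarboxylase supplies the aminopropyl groups that spermidine synthase and spermine synthase add to it. Acetylation by SAT1 marks polyamines for export or oxidation, antizymes send ornithine decarboxylase to the proteasome, and the antizyme inhibitor blocks the antizymes. Much of the control of these proteins acts on translation and protein decay, which an array of transcripts does not measure.

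The promoters of the 3 genes named for synthesis are shown because their transcript levels differed in direction after 72 h: AMD1 and ODC1 averaged below control and SRM above. Each line gives the 250 bases before the first listed transcription start, 5′ to 3′ on the gene's strand, from RefSeq (GRCh38.p14). Capitals mark the motifs searched on both strands, TATAA (the TATA box core), TGACGT (part of the cyclic AMP response element) and CACGTG (the E-box bound by MYC and MAX).
AMD1 (chr6:110874535-110874784, plus strand): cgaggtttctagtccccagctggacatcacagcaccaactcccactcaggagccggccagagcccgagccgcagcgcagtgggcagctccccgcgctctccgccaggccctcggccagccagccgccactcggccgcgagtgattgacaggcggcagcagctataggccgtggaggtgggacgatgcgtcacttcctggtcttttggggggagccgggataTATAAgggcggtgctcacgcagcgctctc
ODC1 (chr2:10448328-10448577, minus strand): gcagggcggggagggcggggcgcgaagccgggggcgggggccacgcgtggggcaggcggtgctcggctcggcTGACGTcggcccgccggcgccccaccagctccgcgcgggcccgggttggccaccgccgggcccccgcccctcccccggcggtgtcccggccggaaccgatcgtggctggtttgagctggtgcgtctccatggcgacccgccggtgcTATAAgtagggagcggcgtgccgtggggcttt
SRM (chr1:11060019-11060268, minus strand): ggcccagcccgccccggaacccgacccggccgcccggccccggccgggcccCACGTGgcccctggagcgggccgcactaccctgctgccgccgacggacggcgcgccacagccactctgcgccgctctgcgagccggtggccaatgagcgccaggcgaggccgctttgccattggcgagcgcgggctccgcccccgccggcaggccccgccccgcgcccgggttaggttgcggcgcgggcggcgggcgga

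Positions are counted from the start, with negative numbers before it. The AMD1 window held the TATA box core from -29 to -25, and the ODC1 window held it from -32 to -28. The ODC1 window also held the response element part from -178 to -173. The SRM window held the E-box, from -199 to -194, and no TATA box core. An E-box also stood in the window of a second listed start of ODC1, from -29 to -24. Among 35116 windows of the same length in the table, 18.9% held the TATA box core, 7.10% the response element part and 6.34% the E-box. Promoter entries were found for 7 of the 8 genes, and none of the 3 motifs stood in the windows of SMS, SAT1, OAZ1 or OAZ2.

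Values are probe intensities after background correction and normalisation between arrays, on a log2 scale, where a difference of 1 is a doubling. Differences are given with their standard error, n counts mice, and a gene passed when its limma p value, adjusted over all genes tested, was under 0.05. Where the values of groups are said to lie apart, that is a description. The share of all genes so separated is not given, and no result is read from such separation. Arrays detected 13066 to 15721 probes, and the lowest correlation between arrays of a group was 0.894, in 24 h blood. Markers of the myeloid lineage were present (CEBPA, LYZ and CD68 on all arrays), while MPO, a granule enzyme of myeloid precursors, was detected on no array. Of 8 markers of T and NK cells only NKG7 and GNLY passed the filter, and CD3D, CD3E, CD8A and KLRD1 were detected on no array.

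AMD1, S-adenosylmethionine decarboxylase, had its lowest values after 72 h at every site. In blood it measured 8.28, 9.01 and 8.26 in control mice, 7.34, 7.29 and 9.14 after 24 h, and 5.34 and 5.65 after 72 h. In spleen it measured 9.16, 8.36 and 8.64 in control mice, 8.76, 8.03 and 8.72 after 24 h, and 5.83 and 6.08 after 72 h. In marrow it measured 8.79, 8.69 and 9.12 in control mice, 9.15, 8.51 and 9.42 after 24 h, and 7.38 and 8.02 after 72 h. At each site both 72 h values lay below all control and all 24 h values, and after 24 h the blood array of replicate 3 stood above the other 24 h blood arrays. The probe was not detected on either 72 h blood array or on 1 of the 72 h spleen arrays, while the other 21 arrays detected it.

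These values chose the set, so the 72 h difference of AMD1 is given as a description with no test. Over the 3 sites AMD1 averaged 6.38 ± 0.28 after 72 h (SD, n = 2) and 8.70 ± 0.04 in control mice (SD, n = 3), a difference of -2.32 ± 0.30. By site the difference was -3.02 ± 0.44 in blood, -2.77 ± 0.44 in spleen and -1.17 ± 0.44 in marrow. The blood and spleen values after 72 h lay at or near the background of the arrays, so the size of these differences depends on the background correction: without it the difference was -2.19 in blood, -2.12 in spleen and -1.78 over the sites. In marrow, where both 72 h arrays detected the probe, AMD1 was 2.25-fold lower. Within BeadChip 2, which held the 72 h mice and 2 of the controls, the difference over the sites was -2.30. Without the blood array of replicate 8, which had the lowest AMD1 value, the difference over the sites in all mice was -2.11. There replicate 8 was averaged over marrow and spleen alone while the other mice included blood, so that value covers unlike sites. Ordered by mean, the 9 groups ran from 72 h blood (5.49), 72 h spleen (5.96) and 72 h marrow (7.70) through 24 h blood (7.92 ± 1.06, SD, n = 3) to the 5 other groups between 8.51 and 9.03. No order is read between 72 h blood and 72 h spleen, since their values were not above background on 3 of 4 arrays. Among the 5 other groups, neighbours differed by less than their own SDs, which were 0.22 to 0.47.

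Other RNA also differed between the 72 h and control arrays. The erythroid list summed to 17981 to 20352 in 72 h blood and 1409 to 7846 in control blood, through HBA2, while HBA1, SLC4A1 and AHSP were detected on no array. A list of 4 small RNA genes (SNORD3A, SNORD3C, SNORD3D, RN7SK) summed to 23878 to 68896 in 72 h blood and 8944 to 16440 in control blood. In spleen, where AMD1 was also low, the erythroid sums were 20382 to 20702 after 72 h and 17517 to 20567 in control mice, and the small RNA sums were 3630 to 16365 after 72 h and 1664 to 2753 in control mice. In marrow the erythroid sums were 19667 to 21529 after 72 h and 8405 to 13706 in control mice, and the small RNA sums were 3364 to 3695 after 72 h and 1683 to 2983 in control mice. Neither list overlapped between 72 h and control arrays, except the erythroid list in spleen. The erythroid sums after 72 h and in control spleen were as high as the deposited intensities of OAZ1 (17348 to 22248), which read near the top of the measured range. Their overlap in spleen therefore does not show that erythroid RNA was alike there. The part of these in the 72 h values was not tested.

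**Figure D1:**
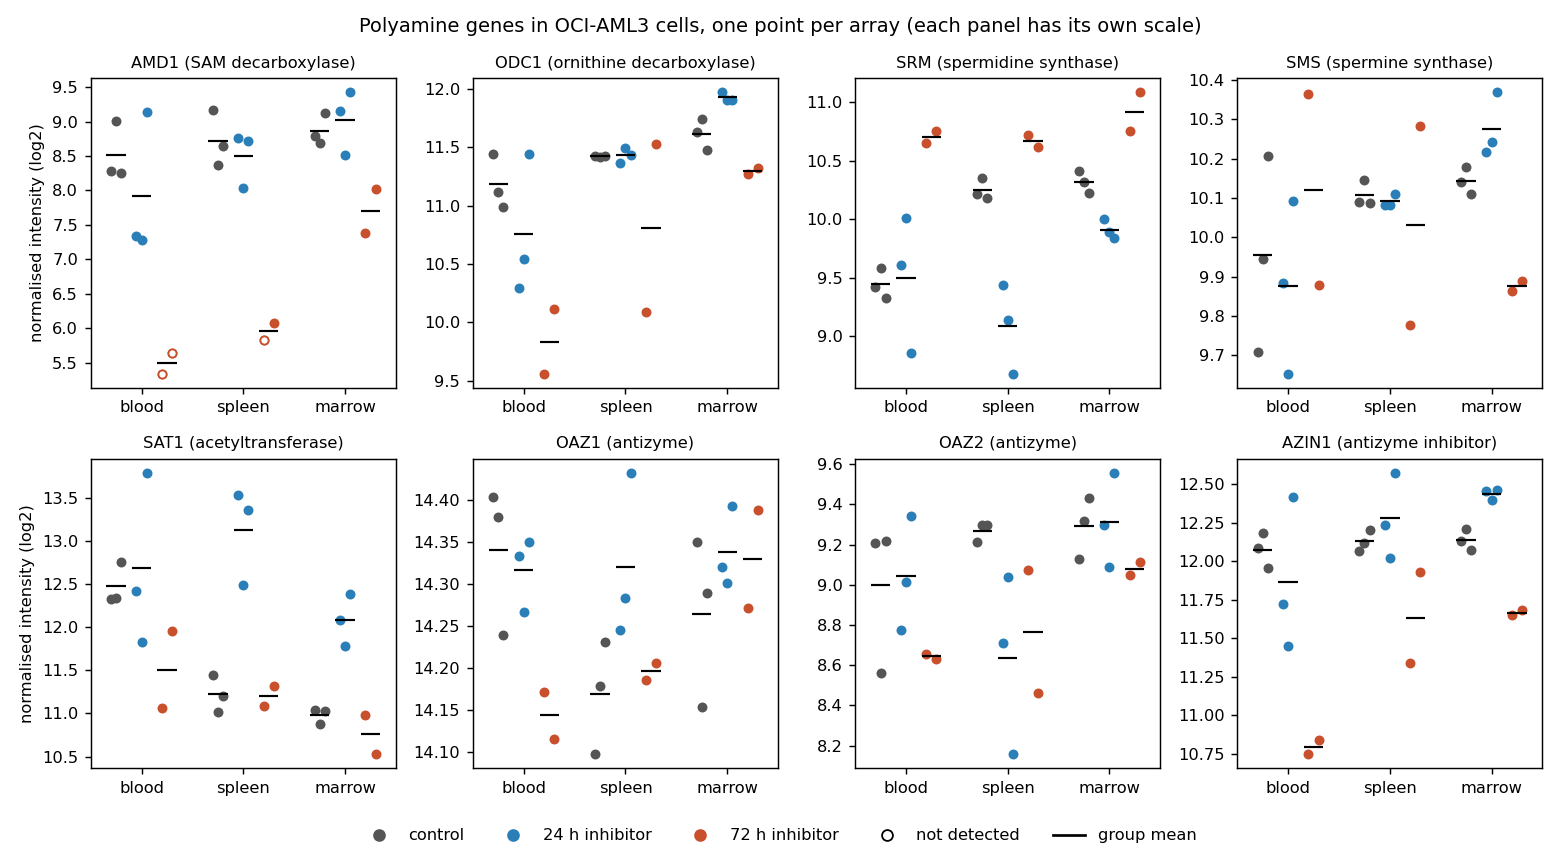
Normalised log2 intensity of each of the 8 genes (y axis, a scale of its own per panel) by site (x axis), 1 point per array, with control, 24 h and 72 h mice side by side at each site. Open points mark arrays on which the probe was not detected, and bars mark group means; AMD1 is lowest in the 72 h groups, SRM is highest there, and SAT1 is highest in 24 h spleen.

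ODC1, ornithine decarboxylase, which makes putrescine, followed AMD1 in part. In blood it measured 11.44, 11.12 and 10.98 in control mice, 10.29, 10.54 and 11.44 after 24 h, and 9.56 and 10.11 after 72 h. In spleen it measured 11.42, 11.41 and 11.43 in control mice, 11.37, 11.49 and 11.44 after 24 h, and 10.09 and 11.53 after 72 h. In marrow it measured 11.63, 11.74 and 11.47 in control mice, 11.97, 11.91 and 11.90 after 24 h, and 11.27 and 11.32 after 72 h. The 72 h values lay below every control value in blood and marrow, and in spleen the 2 mice treated for 72 h stood on either side of the controls. The 72 h minus control difference, as a description, was -1.35 ± 0.33 in blood, -0.61 ± 0.33 in spleen and -0.32 ± 0.33 in marrow.

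SRM, spermidine synthase, lay the other way. In blood it measured 9.43, 9.59 and 9.33 in control mice, 9.61, 10.01 and 8.86 after 24 h, and 10.65 and 10.76 after 72 h. In spleen it measured 10.22, 10.35 and 10.19 in control mice, 9.44, 9.14 and 8.68 after 24 h, and 10.72 and 10.62 after 72 h. In marrow it measured 10.41, 10.32 and 10.23 in control mice, 10.00, 9.90 and 9.84 after 24 h, and 10.75 and 11.08 after 72 h. At every site both 72 h values exceeded all control and all 24 h values, and in spleen and marrow all 24 h values lay below all control values. The 72 h minus control difference, as a description, was 1.26 ± 0.26 in blood, 0.42 ± 0.26 in spleen and 0.60 ± 0.26 in marrow. In the authors' background-subtracted values, which carry no scaling between arrays, it was 0.98 in blood, 0.25 in spleen and 0.18 in marrow. The median of all genes tested was -0.47, -0.22 and -0.40 in those values, so a smaller rise of SRM is not read from them.

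SAT1, the spermidine and spermine acetyltransferase that starts polyamine breakdown, was highest after 24 h. In blood it measured 12.33, 12.34 and 12.76 in control mice, 12.42, 11.83 and 13.79 after 24 h, and 11.07 and 11.95 after 72 h. In spleen it measured 11.44, 11.02 and 11.20 in control mice, 13.54, 12.49 and 13.36 after 24 h, and 11.09 and 11.32 after 72 h. In marrow it measured 11.04, 10.88 and 11.03 in control mice, 12.08, 11.78 and 12.38 after 24 h, and 10.99 and 10.53 after 72 h. In spleen and marrow the 24 h values stood above all control and 72 h values, and in blood the groups at 24 h and control overlapped. The 72 h minus control difference was -0.97 ± 0.41 in blood, -0.02 ± 0.41 in spleen and -0.23 ± 0.41 in marrow. Without the blood array of replicate 8 that of SAT1 in blood was -0.52, which rests on the 72 h blood array of replicate 9 alone (11.95).

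AZIN1, the antizyme inhibitor that spares ornithine decarboxylase from breakdown, resembled ODC1 in blood. There it measured 12.09, 12.19 and 11.95 in control mice, 11.73, 11.45 and 12.41 after 24 h, and 10.75 and 10.84 after 72 h. In spleen it measured 12.07, 12.12 and 12.21 in control mice, 12.24, 12.02 and 12.57 after 24 h, and 11.34 and 11.93 after 72 h. In marrow it measured 12.13, 12.21 and 12.07 in control mice, 12.45, 12.39 and 12.46 after 24 h, and 11.65 and 11.68 after 72 h. Both 72 h values lay below every control value at all 3 sites, with differences of -1.28 ± 0.23 in blood, -0.50 ± 0.23 in spleen and -0.47 ± 0.23 in marrow. With the mean of its probes in place of the probe with the highest mean, the AZIN1 difference was -0.87 in blood, -0.05 in spleen and -0.70 in marrow.

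The antizymes and spermine synthase stood closer together. OAZ2 ranged from 8.16 to 9.56 over all 24 arrays, and its 72 h minus control difference over the sites was -0.36 ± 0.15. OAZ1 ranged only from 14.10 to 14.43, and its deposited intensities of 17348 to 22248 were 72.1% to 95.0% of the brightest probe on the same array, so its probe read near the top of the measured range. The 72 h minus control difference over the sites was -0.04 ± 0.14 for OAZ1 and -0.06 ± 0.15 for SMS, and that of OAZ1 turned positive (0.13) in the authors' background-subtracted values without scaling between arrays. The SMS value is that of the probe with the higher mean, which ranged from 9.65 to 10.37. The second SMS probe (ILMN_2225318) differed by -0.80 ± 0.27 over the sites between 72 h and control, also a description.

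In blood, ODC1, SRM and AZIN1 were lower than in marrow of the same mice, and SAT1 was higher, averaged over the 3 treatment groups. Leaving AMD1 aside, these were 4 of the 7 other genes, 3 lower and 1 higher, where 48.1% of all genes tested passed, and nothing particular to the set is read from this share. ODC1 averaged 10.59 in blood and 11.61 in marrow, a difference of -1.02 ± 0.16 (2.03-fold lower, adjusted p = 0.000164), and was lower in 8 of 8 mice. SAT1 averaged 12.22 in blood and 11.27 in marrow, a difference of 0.95 ± 0.18 (1.93-fold higher, adjusted p = 0.000628), and was higher in 8 of 8 mice. AZIN1 was 1.42-fold lower (-0.50 ± 0.11, adjusted p = 0.00177, 8 of 8 mice), and SRM was also 1.42-fold lower (-0.50 ± 0.12, adjusted p = 0.00272, 7 of 8 mice). The AZIN1 difference was small in the control mice (-0.04, -0.02 and -0.12) and larger in the mice treated for 72 h (-0.90 and -0.85). After 24 h it was -0.73, -0.94 and -0.05. The median difference was -0.42 over the 8 genes, AMD1 included, and -0.03 over all genes tested. Since the arrays that chose AMD1 enter the first median, no shift of the set is read from it.

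AMD1 averaged 7.31 in blood and 8.53 in marrow, a difference of -1.22 ± 0.19 that is given as a description, since the arrays that chose the gene enter it. In the 6 mice not treated for 72 h the difference was -0.73 (adjusted p = 0.0213), and within control mice it was -0.35 ± 0.31 (adjusted p = 0.492). In those 6 mice ODC1 (-0.80), SRM (-0.65), SAT1 (1.04), AZIN1 (-0.32) and SMS (-0.29) also passed, with adjusted p values of 0.001, 0.00163, 0.000619, 0.0382 and 0.0308. The share of all genes that passed in those 6 mice is not given here, so nothing particular to the set is read from these passes. OAZ2 missed the threshold over all 8 mice (-0.33 ± 0.15, adjusted p = 0.0872). For SMS the 95% interval of the difference ran from -0.35 to 0.12, and for OAZ1 from -0.22 to 0.13. In bulk samples fewer cells of a type and less RNA per cell cannot be told apart.

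Each mouse lay on 1 BeadChip, and the site differences were read within each of them. Within BeadChip 2, with 2 control mice and the 2 mice treated for 72 h, ODC1 (-1.01), SRM (-0.52) and SAT1 (1.17) passed and AZIN1 did not (-0.47, adjusted p = 0.0789). AMD1 measured -1.24 there, a description that rests on the 72 h arrays. Within BeadChip 1, with the 3 mice treated for 24 h and 1 control mouse, the values were -0.81 for AMD1, -0.68 for ODC1, -0.70 for SRM, 0.95 for SAT1 and -0.31 for AZIN1, and none passed (adjusted p = 0.102 to 0.402). The T and NK list summed to 3092 to 10164 in blood and 709 to 3021 in marrow, and the small RNA list to 8944 to 68896 in blood and 1334 to 3695 in marrow. Their part in the site differences was not tested.

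Spleen stood between blood and marrow for several of the genes. SRM was lower in spleen than in marrow (-0.38 ± 0.12, adjusted p = 0.0474, 7 of 8 mice) and SAT1 was higher (0.58 ± 0.18, adjusted p = 0.0487, 8 of 8 mice), 2 of the 7 genes other than AMD1 at a background of 10.8%. The AMD1 difference of -0.80 ± 0.19 is a description. Without the mice treated for 72 h it was -0.33 (adjusted p = 0.377), while SRM (-0.45, adjusted p = 0.039) and SAT1 (0.64, adjusted p = 0.0333) still passed. The SRM difference was largest in the mice treated for 24 h, at -0.56, -0.75 and -1.16. It was -0.19, 0.03 and -0.04 in control mice and -0.03 and -0.46 after 72 h. ODC1 did not pass (-0.39 ± 0.16, adjusted p = 0.128). Without a replicate block for the mouse none of the 8 genes passed. With single mice left out, SRM passed only without replicate 2, SAT1 only without replicate 3 or 8, and ODC1 only without replicate 9.

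Blood was lower than spleen for ODC1 (10.59 in blood and 11.22 in spleen, -0.63 ± 0.16, adjusted p = 0.014) and for AZIN1 (-0.44 ± 0.11, adjusted p = 0.0131), each in 6 of 8 mice. These were 2 of 8 genes at a background of 21.9%. Neither passed without the mice treated for 72 h (ODC1 -0.46, adjusted p = 0.0553; AZIN1 -0.23, adjusted p = 0.174), and neither passed without replicate 6 or without replicate 9. Blood minus marrow and spleen minus marrow share the marrow arrays.

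**Figure D2:**
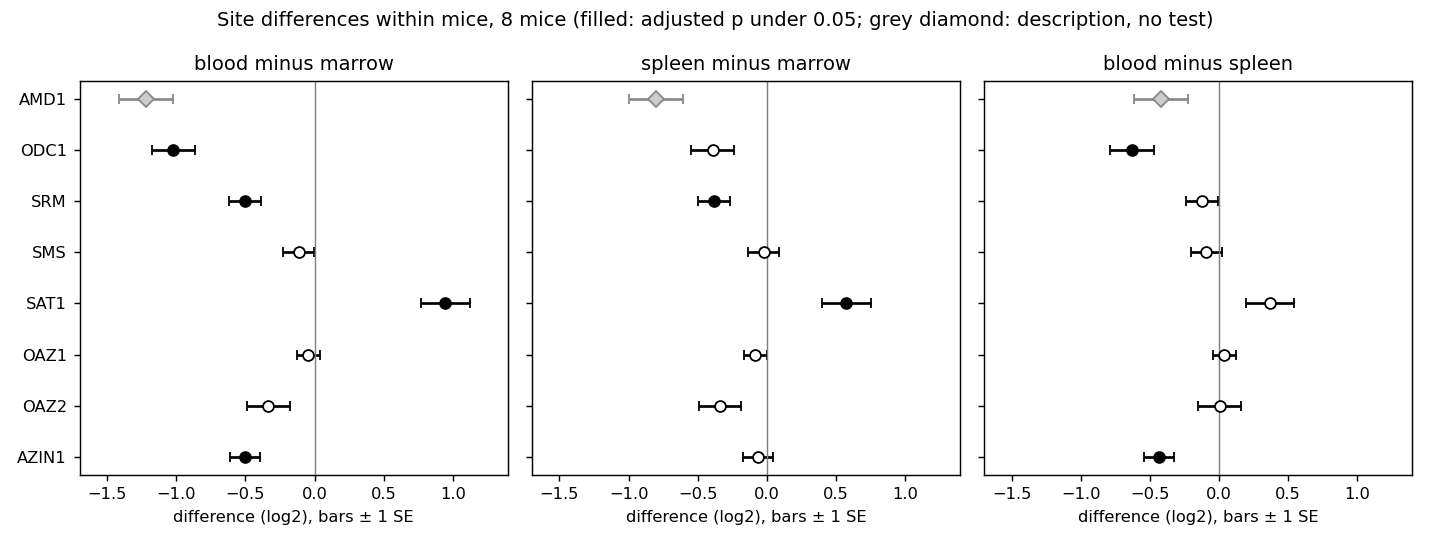
Difference in log2 intensity between sites within mice (x axis) for the 8 genes (y axis), averaged over the 3 treatment groups in 8 mice, with bars of 1 standard error; filled points have an adjusted p under 0.05, and the grey diamonds of AMD1 are a description with no test. In blood minus marrow AMD1 (-1.22) and ODC1 (-1.02) lie lowest and SAT1 (0.95) highest.

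The site differences were also read within each treatment group. In control mice SAT1 was higher in blood than in marrow by 1.49 ± 0.28 (adjusted p = 0.00281) and SRM was lower by -0.87 ± 0.18 (adjusted p = 0.0055), 2 of 8 genes at a background of 16.3%. Both were also apart between blood and spleen of the controls, SAT1 by 1.25 ± 0.28 (adjusted p = 0.0198) and SRM by -0.81 ± 0.18 (adjusted p = 0.0213), again 2 of 8 at a background of 5.73%. Between spleen and marrow of the controls none of the 8 genes passed, also at an unadjusted p under 0.05, at a background of 0.56%.

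After 24 h of the inhibitor 3 genes passed in blood minus marrow. ODC1 (-1.17 ± 0.25, adjusted p = 0.00367), AMD1 (-1.10 ± 0.31, adjusted p = 0.0143) and AZIN1 (-0.57 ± 0.17, adjusted p = 0.0196) were lower in blood than in marrow, 3 of 8 at a background of 36.3% and each in 3 of 3 mice. In spleen minus marrow SRM (-0.82 ± 0.18, adjusted p = 0.00987) was lower and SAT1 (1.05 ± 0.28, adjusted p = 0.0249) higher, 2 of 8 at a background of 13.7%. After 72 h, as a description, the blood minus marrow difference was -2.20 ± 0.38 for AMD1, -1.46 ± 0.31 for ODC1 and -0.87 ± 0.21 for AZIN1. Whether the 24 h effect differed between sites was tested with 1 F test per gene: none of the 8 genes passed, at a background of 0.299% of all genes, and the smallest adjusted p values were 0.0924 for SRM and 0.128 for SAT1, both at an unadjusted p under 0.05.

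In spleen, SAT1 was higher and SRM lower after 24 h of the inhibitor than in control mice. SAT1 averaged 13.13 ± 0.56 after 24 h and 11.22 ± 0.21 in control spleen (SD, n = 3 each), a difference of 1.91 ± 0.37 (3.75-fold higher, adjusted p = 0.00341). SRM averaged 9.09 ± 0.38 after 24 h and 10.25 ± 0.09 in control spleen, a difference of -1.17 ± 0.23 (2.24-fold lower, adjusted p = 0.00363). The values of the 2 groups did not overlap for either gene, which is a description, since the share of all genes so separated is not given here. These were 2 of 8 genes at a background of 12.5%. With the BeadChip as a block both passed, SAT1 at 1.86 (adjusted p = 0.0158) and SRM at -1.18 (adjusted p = 0.0144). Neither passed within BeadChip 1, which held 1 control mouse (SAT1 1.68, SRM -1.13), or in the authors' background-subtracted values (SAT1 1.62, adjusted p = 0.142; SRM -1.21, adjusted p = 0.0916). OAZ2 did not pass (-0.63 ± 0.24, adjusted p = 0.081), and for AMD1 and ODC1 the 95% intervals ran from -1.04 to 0.61 and from -0.60 to 0.62.

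Other markers differed between the same spleen arrays. The summed level of the T and NK cell list was 5647 to 9681 after 24 h and 1666 to 1979 in control spleen, carried by NKG7 and GNLY, with CD3D, CD3E, CD8A and KLRD1 undetected. The small RNA list summed to 1453 to 7540 after 24 h and 1664 to 2753 in control spleen. The list of stroma and endothelium summed to 1221 to 2414 after 24 h and 711 to 992 in control spleen, with PECAM1 the 1 of its 6 genes that was detected. The part of these in the SAT1 and SRM results was not tested.

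In the other comparisons of 24 h with control none of the 8 genes passed. In marrow the background was 0.213%, and SAT1 (1.10 ± 0.37, adjusted p = 0.322) was the gene with an unadjusted p under 0.05. In blood the background was 0.0386% and no gene of the set had an unadjusted p under 0.05. Without replicate 3, whose 24 h blood AMD1 value was 9.14 against 7.34 and 7.29, AMD1 passed there at -1.20 (adjusted p = 0.0203). AMD1 did not pass in 16 of 17 alternatives, and no share of all genes is given for the fit without replicate 3. Over the mean of the sites the background was 0.898%. SAT1 averaged 12.63 after 24 h and 11.56 in control mice (1.07 ± 0.26, adjusted p = 0.0763), and SRM averaged 9.50 after 24 h and 10.01 in control mice (-0.51 ± 0.18, adjusted p = 0.172), both at an unadjusted p under 0.05. Without replicate 2, SAT1 passed over the mean of the sites, and it did not pass in 16 of 17 alternatives.

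**Figure D3:**
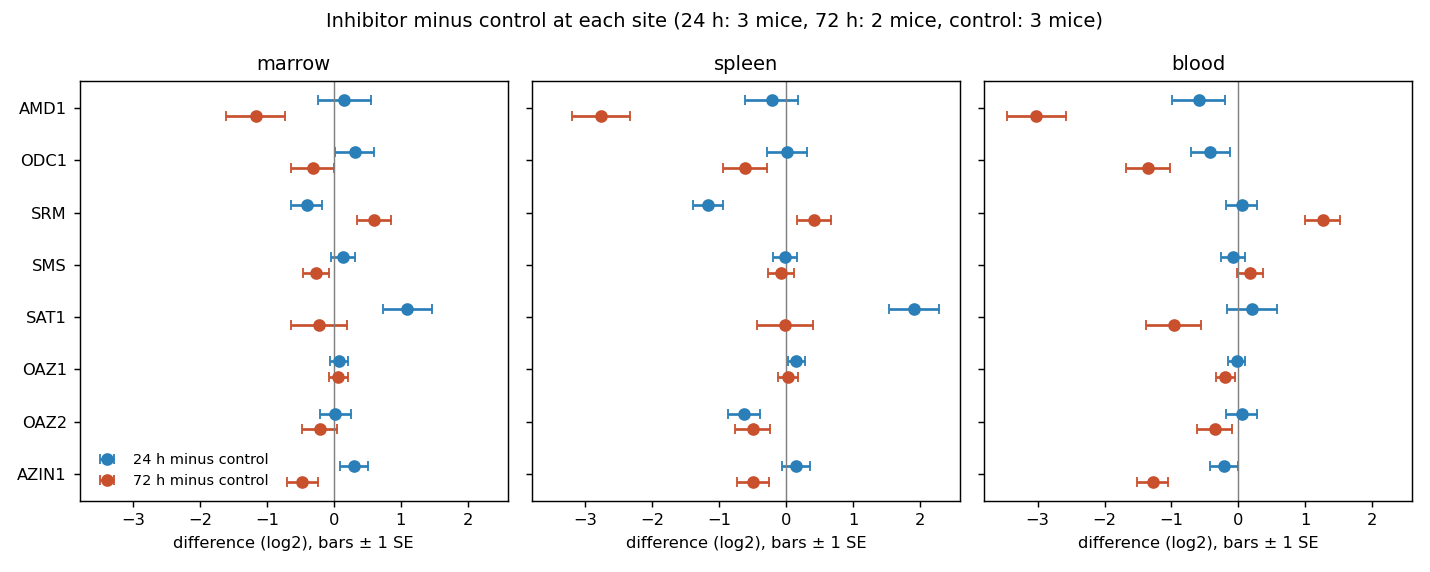
Difference in log2 intensity from control (x axis) for the 8 genes (y axis) at each site, for 24 h and 72 h of the inhibitor, with bars of 1 standard error; the 72 h values are a description. AMD1 lies lowest at 72 h (-3.02 in blood), SRM lies below 0 at 24 h and above 0 at 72 h in marrow and spleen, and SAT1 is 1.91 above control in 24 h spleen.

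SMS and AZIN1 had more than 1 probe, and the probes did not give the same values. In a fit of 13275 probes the second SMS probe (ILMN_2225318) was lower in blood than in marrow by -0.83 ± 0.15 (adjusted p = 0.00058), while the SMS probe with the higher mean (ILMN_1694305) differed by -0.11 ± 0.11 (adjusted p = 0.427). Both SMS probes were detected on all 24 arrays, and which transcripts each reads is not given in the sources used here. For AZIN1, the probe ILMN_2327994, detected on 22 arrays, was also lower in blood (-0.43 ± 0.15, adjusted p = 0.0299). The third AZIN1 probe, ILMN_1704550, was detected on 11 arrays and differed by -0.05 ± 0.24 (adjusted p = 0.884).

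**Figure D4:**
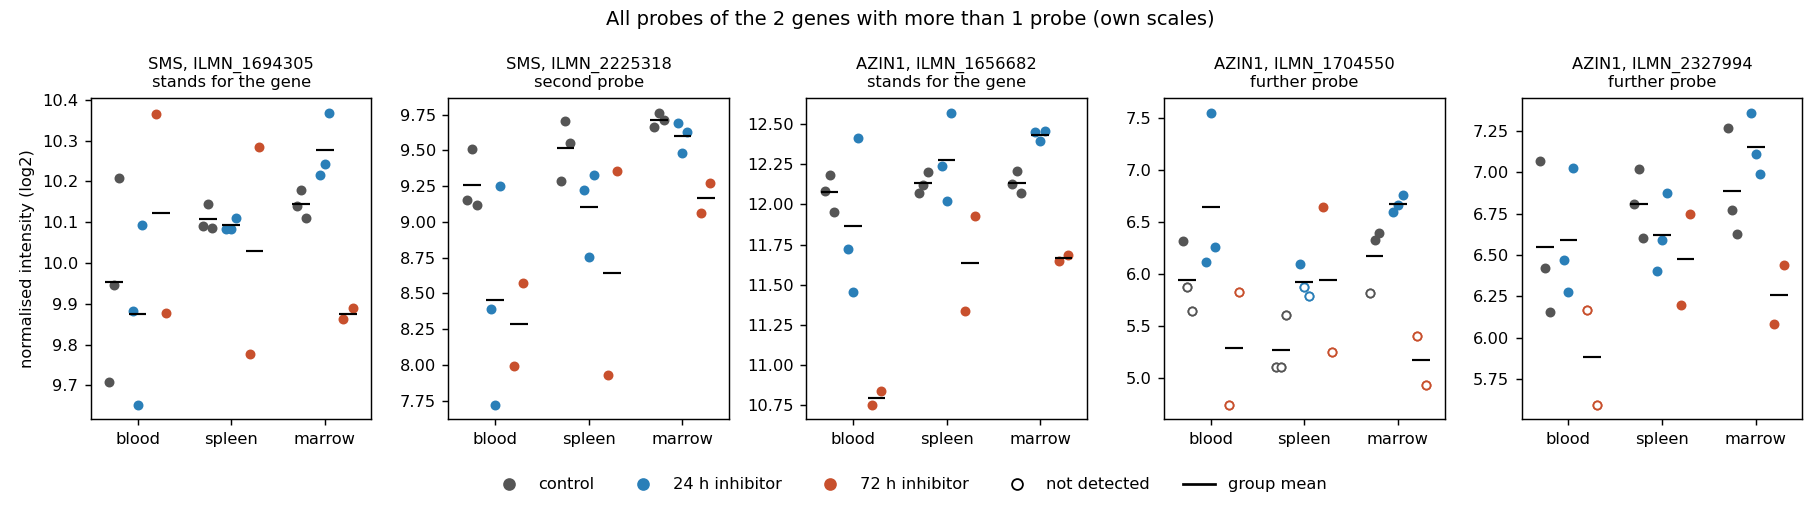
Normalised log2 intensity (y axis, own scales) of the 2 SMS probes and 3 AZIN1 probes by site (x axis), 1 point per array, with control, 24 h and 72 h mice side by side and bars at group means; open points were not detected. The second SMS probe spreads from 7.72 to 9.77, while the first stays between 9.65 and 10.37.

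The genes that tracked AMD1 most closely over the 24 arrays were PIP5K1A (r = 0.949), BLTP3B (0.922), APAF1 (0.919), UVRAG (0.917) and NUP153 (0.911), by Pearson correlation. For ODC1 they were BCOR (0.956), TDG (0.947), GFM1 (0.945), DDX21 (0.943) and SMARCC1 (0.943). For SRM they were POLD2 (0.972), RRP7A (0.963), EXOSC5 (0.955), MRPL12 (0.949) and SNU13 (0.945). All 24 arrays entered each correlation, and arrays of a mouse and of a group are not independent, so these are descriptions. DDX21, a nucleolar helicase, differed by -1.43 over the sites between 72 h and control, and RRP7A and EXOSC5, which take part in ribosomal RNA processing, by 0.74 and 0.67. These genes were picked by a correlation that includes the 72 h arrays. The direction of their 72 h differences follows from that choice, and no shared function is read from them.

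Around the 8 genes, 32 other genes of polyamine metabolism were listed and 24 passed the filter. In blood minus marrow 4 were higher and 9 lower, 13 of 24 where 48.1% of all genes passed, with a median of -0.04 against -0.03 over all genes tested. Nothing particular to these genes is read from this share. AHCY, which clears S-adenosylhomocysteine, was lower by -0.91 ± 0.14 (adjusted p = 0.000169), and ALDH18A1, which makes the precursor of ornithine and proline from glutamate, by -0.67 ± 0.12 (adjusted p = 0.000457). APIP, of the methionine salvage pathway that recycles the by-product of polyamine synthesis, was lower by -0.80 ± 0.16 (adjusted p = 0.00124). SMOX, spermine oxidase, was higher by 0.83 ± 0.16 (adjusted p = 0.0009), and SAT2, a relative of SAT1, by 0.59 ± 0.12 (adjusted p = 0.0013). Each of AHCY, SMOX and SAT2 differed this way in 8 of 8 mice, and ALDH18A1 and APIP in 7 of 8.

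In spleen minus marrow, at a background of 10.8%, 0 were higher and 2 lower, AHCY (-0.52 ± 0.14, adjusted p = 0.0289) and ALDH18A1 (-0.41 ± 0.12, adjusted p = 0.0377). In blood minus spleen, at a background of 21.9%, SMOX was higher (0.54 ± 0.16, adjusted p = 0.0301) and ENOPH1, of methionine salvage, lower (-0.55 ± 0.18, adjusted p = 0.0437). In spleen after 24 h, at a background of 12.5%, 1 was higher, SMOX (1.21 ± 0.32, adjusted p = 0.0192), and 3 were lower. Those were AHCY (-1.13 ± 0.27, adjusted p = 0.012), ALDH18A1 (-0.98 ± 0.20, adjusted p = 0.00405) and SLC7A1, the cationic amino acid transporter (-0.95 ± 0.25, adjusted p = 0.0159). In the other comparisons of 24 h with control 0 of the 24 passed. After 72 h the differences over the sites, as a description, were 0.95 ± 0.25 for SMOX and 0.88 ± 0.18 for SAT2, against -0.69 ± 0.21 for SLC7A1, -0.90 ± 0.24 for APIP and -1.40 ± 0.33 for ENOPH1.

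MYC, a transcription factor known to act on the ODC1 promoter, was lower in blood than in marrow by -1.49 ± 0.17 (adjusted p = 1.47e-05, 8 of 8 mice), at a background of 48.1%. In spleen after 24 h it was lower than in control spleen by -1.29 ± 0.41 (adjusted p = 0.0471), at a background of 12.5%, where ODC1 differed by 0.01 ± 0.29. After 72 h its difference over the sites was -1.10 ± 0.34. SRM, whose window held the E-box, averaged 10.76 after 72 h and 10.01 in control mice over the sites. ODC1, with an E-box in the window of its second listed start, averaged 10.65 after 72 h and 11.41 in control mice. The part of MYC in the values of ODC1 and SRM was not tested.

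**Figure D5:**
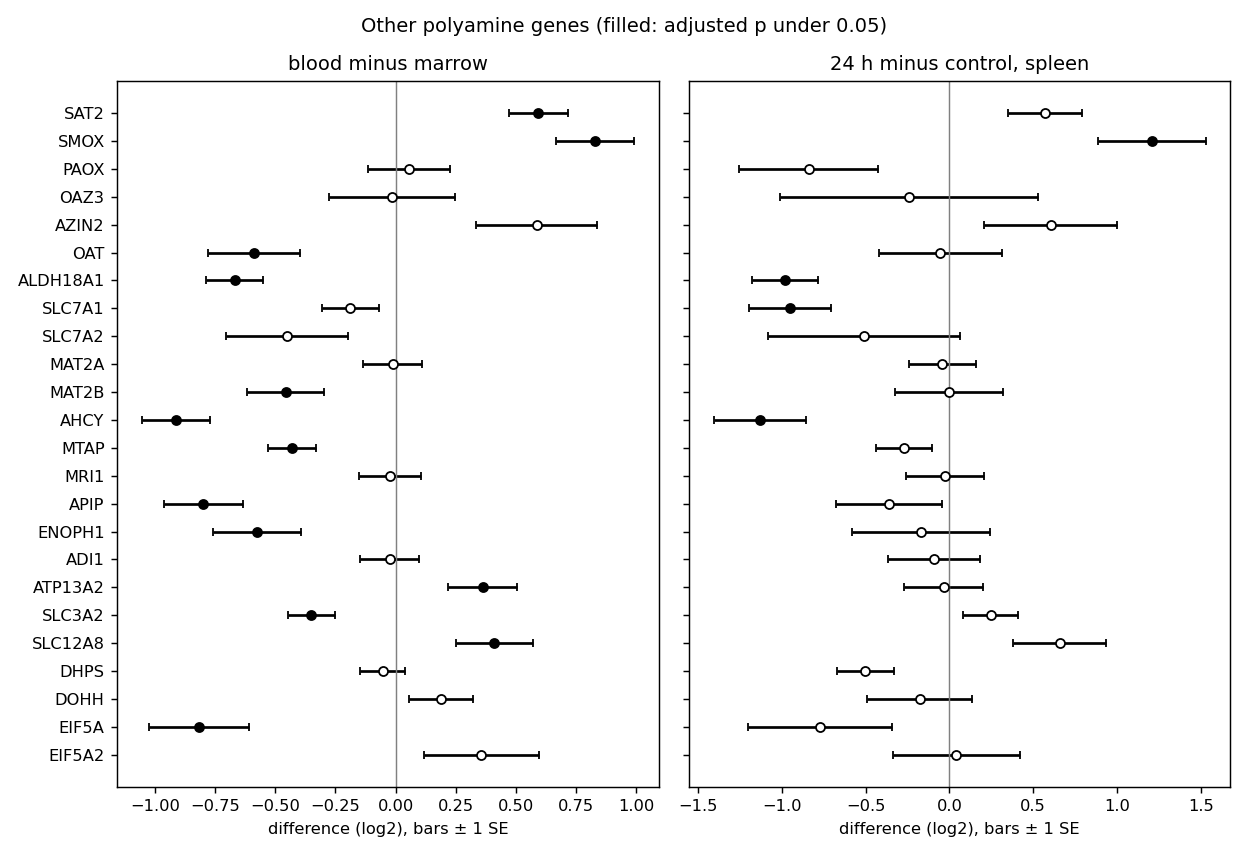
Difference in log2 intensity (x axis) for the 24 other polyamine genes that passed the filter (y axis), in blood minus marrow (8 mice) and in spleen after 24 h minus control (3 mice each), with bars of 1 standard error; filled points have an adjusted p under 0.05. SMOX lies above 0 and AHCY and ALDH18A1 below 0 in both panels, all filled.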

How the data were processed

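Per the labels' protocols, the RNA went through 2 amplifications, the second with biotin, and was read on Illumina BeadChips. The authors deposited, per probe and array, a mean bead intensity on a linear scale without background subtraction and a detection p-value, exported from GenomeStudio per the submitters' processing notes; its version is not given in the sources used here. Their series matrix holds the same intensity less a constant per array (49.7 to 64.5), with no scaling.

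Here limma 3.58.1 in R 4.3.3 applied neqc (normexp background from the detection p-values, offset 16, quantile normalisation, log2). Probes with a detection p under 0.01 on at least 3 of 24 arrays were kept (17116 of 47231), and each gene was read from its kept probe of highest mean. Symbols came from the platform listing (30113 probes with 1 symbol, 8 with several, 17110 with none). Tests were moderated tests of limma, two-sided, Benjamini-Hochberg adjusted over 10351 genes. Site comparisons used 24 arrays in 9 groups with the mouse, whose number stands in the titles, as a replicate block (mean correlation of deviations 0.284 within mice). Treatment comparisons over sites used 1 mean per mouse, those at a site the group means; array number limits the precision. The fits were tested on simulated data.

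Members, lists and the naming rule were chosen with earlier results of these data known. The rule named the 8 members, the 5 genes most like each of AMD1, ODC1 and SRM, up to 5 other polyamine genes per comparison, and MYC. The alternatives were other background correction, filters, probe rules, blocks, BeadChips and mice. Values for 72 h carry no test.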

Additional observations from a re-analysis of the deposited data

Results flagged for a closer look

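SRM differed in the direction of its blood minus spleen difference between treatment groups. The mean was 0.409 after 24 h, positive in all 3 mice, and -0.806 in control mice, negative in all 3. This pair was marked by the opposite signs alone, and the difference between the blood minus spleen values was not tested by itself; the F test over all sites gave SRM an adjusted p of 0.0924. For OAZ1 the mean was -0.0524 after 72 h, negative in both mice, and 0.172 in control mice, positive in all 3, a difference that was not tested. Its probe read at 72.1% to 95.0% of the brightest probe on the same array, near the top of the measured range.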

How the results depend on the processing

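Counts over the sites include AMD1, whose 72 h arrays chose the set. In the main fits 48.1% of all genes passed in blood minus marrow, 10.8% in spleen minus marrow and 21.9% in blood minus spleen. For 24 h minus control it was 0.898% over the mean of the sites, 12.5% in spleen and 0.0386% in blood. Shares of all genes are not given for most other fits, so nothing particular to the set is read from these counts. Of the 8 genes, 5 passed in blood minus marrow, between 5 and 6 with single mice left out, and 0 within BeadChip 1, which held 1 control mouse and the 3 mice treated for 24 h. In spleen minus marrow 3 passed, and the count was 0 with the series matrix values, 1 with no filter, 1 with every probe fitted, 0 within BeadChip 1, 0 within BeadChip 2 and 0 to 2 with single mice left out. With every probe fitted the gene that passed was AMD1, and SRM (adjusted p = 0.0542) and SAT1 (adjusted p = 0.0529) did not. There SRM did not pass in 13 of 19 alternatives and SAT1 in 12 of 19. In blood minus spleen 2 passed; the count was 1 with the mean of the probes of a gene, 0 within BeadChip 1, 0 within BeadChip 2, 0 without the mice treated for 72 h (chosen after seeing the data) and 0 to 3 with single mice left out. With no replicate block for the mouse the counts were 5, 0 and 2 members, and over all genes 3997 against 4981 in blood minus marrow, 505 against 1123 in spleen minus marrow and 892 against 2264 in blood minus spleen. For 24 h minus control, 0 passed over the mean of the sites and 0 to 1 with single mice left out, 0 passed in blood and 0 to 1 with single mice left out, and 2 passed in spleen, with 2 to 3 when single mice were left out, 0 with the series matrix values and 0 within BeadChip 1. There SRM and SAT1 kept their directions within BeadChip 1, at -1.13 and 1.68. The AMD1 difference of 72 h minus control was -1.78 over the sites, -2.12 in spleen and -2.19 in blood with quantile normalisation without background correction. With the series matrix values it was -3.13 over the sites, -1.80 in marrow, -3.56 in spleen and -4.05 in blood, where those unscaled values also moved the median of all genes to -0.36, -0.40, -0.22 and -0.47. The cause of these movements was not tested. No difference past the threshold turned its sign under any alternative. AMD1 could not be tested when a probe had to be detected on all arrays.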
